A study of Mus musculus with 10 samples.

Results

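Complement is a set of blood and tissue proteins that tags cells and debris for removal and can punch pores in membranes. The genes described here encode the proteins that hold this cascade back and the receptors that read its products. They are 9 genes chosen by name from the 55487 distinct genes of the count table: Serping1, Cfi, Cd55, Cd46, Cd59a, Clu, Vtn, C3ar1 and C5ar1. All 9 were found in the table, each under 1 Ensembl identifier, and all 9 passed the filter on low counts that left 20684 genes to test.

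RNA was sequenced from the RPE/choroid complex of the mouse eye, the pigmented cell layer under the retina together with the vascular bed behind it. The ADQ group held 5 samples from mice of genotype iDTR Adiponectin-Cre, in which the adiponectin promoter drives Cre in fat cells. Cre switches on the diphtheria toxin receptor of the iDTR allele (the HBEGF gene at the ROSA locus, on C57BL/6), which makes fat cells in the whole body, and not in the eye alone, sensitive to the toxin. The control group held 5 samples from iDTR mice without that Cre. Both groups carried the iDTR allele and both received diphtheria toxin into the peritoneal cavity. The series description gives daily injections over 7 weeks for the mice with Cre, and the labels give no schedule of their own for control. Age, sex and the number of animals behind a sample were not given in the sources used here, and no label says that samples came from separate animals. The p-values therefore rest on sample-to-sample spread, part of which may be technical.

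Complement can be started by antibody, by sugars on microbes or by slow spontaneous turnover of C3, and all 3 routes meet at the cleavage of C3 and then of C5. Host cells survive because soluble and membrane-bound inhibitors act at each step: at the first proteases, at the enzymes that split C3 and C5, and at the pore itself. In the eye, uncontrolled complement under the RPE is linked to age-related macular degeneration, and clusterin and vitronectin are found in the deposits of that disease.

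Library totals were 43591245 to 64087660 counts in ADQ and 47997064 to 50974422 counts in control. The RPE marker Rpe65 was at 2072 to 2532 CPM (counts scaled to a common library size) in ADQ and 2021 to 3031 CPM in control and so was detected in all libraries. Counts of Adipoq, which encodes adiponectin, were 8 to 77 in ADQ, 177 to 402 in control 1 to 4 and 0 in control 5 (log2 fold change -2.23, edgeR adjusted p = 0.369). T and NK cell markers, 7 in all, summed to 69.5 to 104 CPM in ADQ, 22.8 to 34.7 CPM in control 1 to 4 and 74.6 CPM in control 5. The library labelled control 5 thus stood with ADQ and apart from the other controls in the fat cell transcript and in these markers; without it, 357 genes passed over all genes in place of 171, and still none of the 9, whose log2 fold changes then ran from -0.48 for Cd55 to 0.30 for Vtn. CPM values here are scaled by the trimmed mean of M-values (TMM), and fold changes are ADQ over control.

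Promoters are shown for 3 of the genes: the receptors C3ar1 and C5ar1, whose ratio is compared further on, and Cd59a. Cd59a holds 2 of the searched motifs, as does Vtn, whose promoter is not shown. The search covered the RefSeq promoter windows of build GRCm38.p6, from 250 bases before to 50 bases after each annotated start, on both strands, for GAAA repeated after a gap of 2 bases, the core of the interferon-stimulated response element (ISRE), for TTCNNNGAA, the gamma-activated sequence (GAS), and for GAGGAA, the core of sites for the myeloid factor PU.1. Of 27025 promoters, 3.49% hold the ISRE core, 8.47% the GAS letters and 28.3% the PU.1 core. Entries matched 6 of the 9 genes: Cd55, Cd46, Cd59a, Vtn, C3ar1 and C5ar1. Cd59a (chr2:104095551-104095850, plus strand) holds an ISRE core at position -187 from the start and a PU.1 core at position -62, both in capitals; the 2 receptor promoters hold none of the 3 motifs and so have no capitals (C3ar1 chr6:122856108-122856407, minus strand; C5ar1 chr7:16259289-16259588, minus strand).
Cd59a: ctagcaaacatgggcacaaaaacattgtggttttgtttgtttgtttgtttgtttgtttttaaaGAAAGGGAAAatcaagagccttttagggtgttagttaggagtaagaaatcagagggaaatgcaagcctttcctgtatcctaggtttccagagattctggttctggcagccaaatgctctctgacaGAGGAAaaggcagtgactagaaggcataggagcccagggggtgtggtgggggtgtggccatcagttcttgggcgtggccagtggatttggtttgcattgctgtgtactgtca
C3ar1: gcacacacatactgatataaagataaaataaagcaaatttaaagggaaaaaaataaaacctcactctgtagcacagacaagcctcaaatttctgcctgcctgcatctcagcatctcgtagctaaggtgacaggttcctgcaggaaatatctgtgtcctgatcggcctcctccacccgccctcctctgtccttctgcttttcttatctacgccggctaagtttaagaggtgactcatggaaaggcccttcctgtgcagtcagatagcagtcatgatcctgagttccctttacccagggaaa
C5ar1: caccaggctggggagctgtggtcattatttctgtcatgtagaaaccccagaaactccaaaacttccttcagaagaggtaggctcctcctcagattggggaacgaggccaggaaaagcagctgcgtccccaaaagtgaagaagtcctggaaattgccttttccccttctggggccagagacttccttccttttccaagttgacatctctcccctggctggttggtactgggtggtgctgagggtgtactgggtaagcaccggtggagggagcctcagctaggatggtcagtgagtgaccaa

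Cd46 and Vtn also hold the ISRE core, 2 and 4 bases after the start, and Vtn the GAS letters 35 bases after it; Cd55 holds none of the 3. A match of letters is not a site of binding.

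None of the 9 genes passed the test for a change between ADQ and control. With edgeR's quasi-likelihood test and Benjamini-Hochberg adjustment over all 20684 genes tested, 0 of 9 were higher and 0 of 9 were lower, where 0.827% of all genes passed (0.74% higher and 0.087% lower). At an unadjusted p under 0.05 there was 1 gene, Clu, against 13.8% of all genes, and no gene had groups that did not overlap, against 3.16% of all genes. DESeq2 and voom with quality weights also called 0 of the 9; of 21 alternatives in all, 20 called none of them lower and 1 called Clu lower. Log2 fold changes ran from -0.40 for Cfi to 0.23 for Vtn, with 3 above 0 and 6 below; their median was -0.10, and the median size without sign was 0.22, beside 0.01 and 0.18 over all genes tested. A p that misses the threshold does not show equal levels, so each gene is given with the 95% interval of its fold change.

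**Figure D1:**
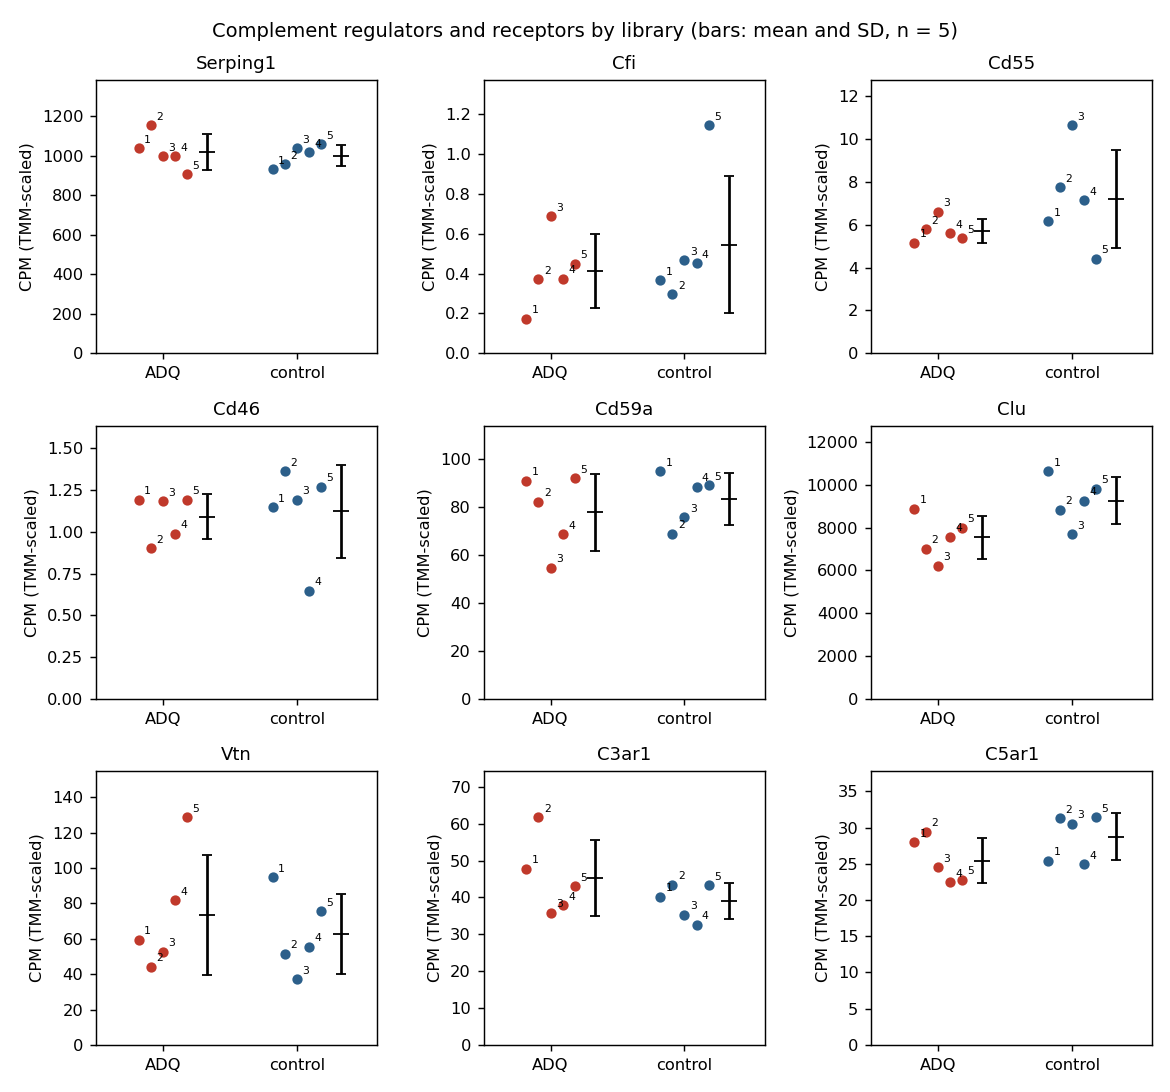
TMM-scaled CPM (y axis, from 0) of the 9 genes in the 5 ADQ (red) and 5 control libraries (blue), numbered by replicate, with mean and SD beside each group. The groups overlap in all 9 panels; Clu shows the lower ADQ values, down to 6232 CPM, and ADQ 5 stands above the other libraries in Vtn, at 129 CPM.

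Per length, the 9 genes spanned a wide range of levels. In CPM per kilobase of merged exons, Clu was at 2194 ± 289 in ADQ and 2689.9 ± 320 in control (SD, n = 5 each), Serping1 at 438 ± 38.7 in ADQ and 430.1 ± 23.2 in control, and Cd59a at 43.0 ± 8.78 in ADQ and 46.1 ± 5.94 in control. Vtn followed, then C5ar1, C3ar1, Cd55, Cfi and Cd46, ordered by their level in control; in ADQ, C3ar1 at 10.5 CPM per kilobase stood above C5ar1 at 9.90 CPM per kilobase. Over the 10 libraries the ranges of 3 neighbouring pairs overlapped, those of Cd59a and Vtn, of C5ar1 and C3ar1, and of Cfi and Cd46. These ranges pool both groups and do not compare the genes of a pair within a library, so the overlap does not settle their order. Clu alone took 0.704 to 0.835% of all counts in ADQ and 0.789 to 0.967% in control, and its mean CPM over the 10 libraries ranked 9 among all genes.

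Serping1 encodes C1 inhibitor, a serpin that blocks the first proteases C1r and C1s and the MASP proteases of the lectin route (ENSMUSG00000023224, chromosome 2, 84765387 to 84775444, minus strand; positions here are GENCODE M21 on GRCm38). It was at 1036, 1153, 997, 998 and 905 CPM in ADQ 1 to 5 and at 932, 956, 1039, 1017 and 1057 CPM in control 1 to 5. The highest and the lowest library were both ADQ, and the groups overlapped. Its log2 fold change was 0.03 (SE 0.09, 95% interval -0.17 to 0.22, edgeR adjusted p = 0.918), so that a change above 1.17-fold or below 0.889-fold lay outside the interval. This was the tightest interval of the 9 genes.

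Cfi encodes factor I, the protease that cuts C3b and C4b apart when a cofactor holds them (ENSMUSG00000058952, chromosome 3, 129835884 to 129875332, plus strand). Its level was near the limit of these libraries: 8, 19, 36, 17 and 29 counts in ADQ 1 to 5 and 16, 15, 24, 21 and 55 counts in control 1 to 5, or 0.411 ± 0.185 CPM in ADQ and 0.545 ± 0.341 CPM in control (SD, n = 5 each). Control 5 held the highest value, 1.14 CPM, and ADQ 1 the lowest, 0.173 CPM. It had a log2 fold change of -0.40 (95% interval -1.36 to 0.55, edgeR adjusted p = 0.705), and without control 5 it was 0.06. At these counts and this spread between libraries (coefficient of variation 45.0% in ADQ and 62.6% in control), the interval is wide.

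Cd55 and Cd46 act on the enzymes that split C3 and C5. Cd55, decay accelerating factor, takes these enzymes apart on the cell surface (ENSMUSG00000026399, chromosome 1, 130439027 to 130462744, minus strand). It was at 5.17, 5.79, 6.62, 5.60 and 5.37 CPM in ADQ 1 to 5 and at 6.16, 7.76, 10.7, 7.16 and 4.43 CPM in control 1 to 5. ADQ libraries lay close together while control ranged widely, with 3 control libraries above every ADQ library and control 5 below every one. For Cd55 the log2 fold change was -0.34 (SE 0.20, 95% interval -0.77 to 0.09, edgeR adjusted p = 0.456); without control 5 it was -0.48 and without control 3 it was -0.16. Control 3, the highest in Cd55, also held the most of the surface epithelium marker Krt5 (316 CPM, against 0 to 0.132 CPM in ADQ), but control 5 held 117 CPM of Krt5 and the least Cd55; the part of carried-over epithelium in the Cd55 values was not tested.

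Cd46, the membrane cofactor for factor I, is in mice known mainly from testis (ENSMUSG00000016493, chromosome 1, 195036826 to 195092249, minus strand). It was at 1.19, 0.90, 1.18, 0.989 and 1.19 CPM in ADQ 1 to 5 and at 1.15, 1.36, 1.19, 0.647 and 1.27 CPM in control 1 to 5, from 45 to 77 counts in ADQ and from 30 to 69 counts in control. Control 4 was lowest, and all ADQ libraries lay within the control range. That gave a log2 fold change of -0.04 (95% interval -0.58 to 0.50, edgeR adjusted p = 0.957). A non-coding gene on the other strand, A330023F24Rik, overlaps the end of Cd46 and held 1619 counts over all libraries. Gm37366 on the other strand (133 counts) and Gm37132 on the same strand (60 counts) also overlap Cd46. The strand setting of the counting was not given, and strand would not separate Gm37132 from Cd46. Whether reads of the genes on the other strand were kept apart from Cd46 is therefore not known. Reads in the overlap with Gm37132 cannot be told apart. The cofactor and decay role on most mouse cells is known to fall to Cr1l (Crry), which was at 53.5 ± 1.26 CPM in ADQ and 55.4 ± 3.7 CPM in control (SD, n = 5 each; log2 fold change -0.05, 95% interval -0.21 to 0.10, edgeR adjusted p = 0.771).

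Cd59a, Clu and Vtn act at the last step, the membrane pore. Cd59a is the lipid-anchored inhibitor that keeps C9 from completing it (ENSMUSG00000032679, chromosome 2, 104095801 to 104115354, plus strand). It was at 91.1, 82.3, 54.8, 68.8 and 92.1 CPM in ADQ 1 to 5 and at 95.1, 69.0, 75.8, 88.6 and 89.3 CPM in control 1 to 5. ADQ 3 and ADQ 4 lay below every control, and the other ADQ libraries lay among them. A log2 fold change of -0.10 was fitted (95% interval -0.40 to 0.20, edgeR adjusted p = 0.766). Its close copy Cd59b was at 5.34 ± 1.39 CPM in ADQ and 5.83 ± 0.827 CPM in control (SD, n = 5 each), and reads could have been split between these copies, so their separate values are uncertain.

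Clu encodes clusterin, a secreted chaperone that also keeps the soluble pore complex out of membranes (ENSMUSG00000022037, chromosome 14, 65968483 to 65981547, plus strand). It was at 8872, 7022, 6232, 7579.9 and 7992 CPM in ADQ 1 to 5 and at 10634, 8834, 7689, 9259.9 and 9809 CPM in control 1 to 5. Lower values stood in ADQ: 3 ADQ libraries lay below every control and 3 controls above every ADQ library, with an overlap between 7689 and 8872 CPM. Clu was the closest of the 9 genes to a call, with a log2 fold change of -0.29 (SE 0.13, 95% interval -0.56 to -0.02, edgeR adjusted p = 0.325). Over the 21 alternatives its log2 fold change ran from -0.36 to -0.14, with adjusted p from 0.0273 to 0.987 and 1 call; the smallest in size was the value with the macrophage marker level as a covariate.

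Among 13738 other protein-coding genes averaging 1 CPM or more, those most like Clu in log2 CPM over the 10 libraries were Rgr (Pearson r = 0.995, Spearman correlation 0.988), Map1lc3a (r = 0.99, Spearman 0.988) and Cops6 (r = 0.989, Spearman 0.976). Without the 2 libraries farthest from the median of Clu, r was 0.988, 0.977 and 0.986 in that order. These are descriptions, picked as the highest of many; the points share their libraries and their scaling. Rgr encodes an opsin of the RPE and is on the RPE marker list; it was at 12481 to 16866 CPM in ADQ and 14561 to 19531 CPM in control (log2 fold change -0.24, edgeR adjusted p = 0.40). The 7 RPE markers together ran from 26599 to 39627 CPM in ADQ and from 31223 to 45063 CPM in control. Most of that sum was Rgr itself and Ttr. Of these markers, 0 of 7 passed, 4 had log2 fold changes below 0 and none was at 0 counts in any library. The 3 above 0 were Lrat at 0.04, Tyrp1 at 0.02 and Best1 at 0.12. The part of RPE content in the Clu values was not tested, and in bulk tissue fewer cells of a type and less RNA per cell cannot be told apart.

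**Figure D2:**
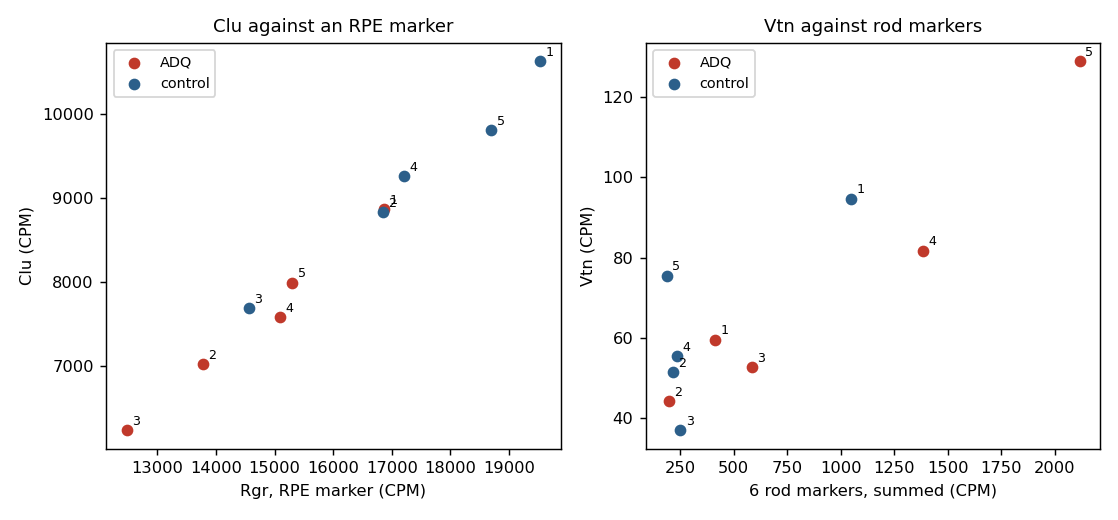
CPM of Clu (left, y axis) against the RPE gene Rgr, and CPM of Vtn (right, y axis) against the summed CPM of 6 rod markers, 1 point per library numbered by replicate, ADQ in red and control in blue. Clu and Rgr share nearly 1 order of the libraries, from ADQ 3 at 6232 CPM of Clu to control 1 at 10634 CPM; ADQ 5, highest in Vtn at 129 CPM, was also highest in the rod markers at 2116 CPM.

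Vtn encodes vitronectin, an adhesion protein of blood and matrix that blocks insertion of the pore (ENSMUSG00000017344, chromosome 11, 78499091 to 78502324, plus strand). It was at 59.5, 44.2, 52.8, 81.7 and 129 CPM in ADQ 1 to 5 and at 94.7, 51.5, 37.0, 55.5 and 75.5 CPM in control 1 to 5. ADQ 5 stood above every control, and the other ADQ libraries lay within the control range. The log2 fold change was 0.23 (95% interval -0.54 to 0.99, edgeR adjusted p = 0.791), and it was -0.08 without ADQ 5. Rods, the photoreceptors of the neural retina, left transcripts in all libraries: 6 rod markers together ran from 196 to 2116 CPM in ADQ and from 187 to 1050.1 CPM in control, with 0 of 6 passing and none at 0 counts. The 3 libraries highest in that sum, ADQ 5, ADQ 4 and control 1, were the 3 highest in Vtn. Control 5, lowest in that sum at 187 CPM, came next after those 3 in Vtn, at 75.5 CPM. With the rod marker level as a covariate the log2 fold change of Vtn was -0.28 (edgeR adjusted p = 0.60). The part of carried-over rods in the Vtn values was not tested.

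C3ar1 and C5ar1 encode the receptors for C3a and C5a, the fragments that draw and activate myeloid cells. C3ar1 (ENSMUSG00000040552, chromosome 6, 122847138 to 122856161, minus strand) was at 47.7, 61.8, 35.8, 37.9 and 43.0 CPM in ADQ 1 to 5 and at 40.2, 43.4, 35.3, 32.6 and 43.4 CPM in control 1 to 5. ADQ 1 and ADQ 2 lay above every control and the other 3 ADQ libraries among them. The log2 fold change was 0.22 (SE 0.14, 95% interval -0.09 to 0.52, edgeR adjusted p = 0.503), and without ADQ 2 it was 0.08.

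C5ar1 (ENSMUSG00000049130, chromosome 7, 16246743 to 16259540, minus strand) was at 28.0, 29.4, 24.6, 22.5 and 22.8 CPM in ADQ 1 to 5 and at 25.4, 31.3, 30.5, 24.9 and 31.5 CPM in control 1 to 5. Here 3 ADQ libraries lay below every control and 3 controls above every ADQ library, the direction opposite to that of C3ar1. The log2 fold change was -0.17 (SE 0.11, 95% interval -0.41 to 0.06, edgeR adjusted p = 0.474). The decoy-like second C5a receptor, C5ar2, was at 0.434 ± 0.203 CPM in ADQ and 0.591 ± 0.36 CPM in control (SD, n = 5 each).

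The 42 other complement genes listed beside these 9 included 2 that rose, where 0.74% of all genes tested rose. Of 27 components and activators, 18 were tested and 1 rose: C4b, the mouse C4, was at 196, 239, 274, 243 and 313 CPM in ADQ 1 to 5 and at 158, 183, 173, 178 and 167 CPM in control 1 to 5, with no overlap (log2 fold change 0.56, SE 0.11, edgeR adjusted p = 0.0341). That call held on leaving out ADQ 1 or control 5 and was lost on leaving out any other library, with edgeR adjusted p from 0.0527 to 0.095; the log2 fold change without 1 library was 0.47 to 0.64. It was also lost with the macrophage or the rod marker level as a covariate, where the log2 fold change was 0.50 and 0.49 (edgeR adjusted p = 0.563 and 0.122). The SE of C4b was then 0.169 and 0.13, against 0.112 without a covariate. The fit with the macrophage covariate called 8 genes in all, in place of 171. The part of macrophage or rod content in the C4b values was not tested. C4a, a close copy of C4b, was at 10.2 ± 2.38 CPM in ADQ and 5.60 ± 1.18 CPM in control (SD, n = 5 each; edgeR adjusted p = 0.053), and reads of these copies may be split. C1s1 and C1ra, the proteases that Serping1 blocks, had log2 fold changes of 0.41 and 0.34 (edgeR adjusted p = 0.126 and 0.138). Cfd, the factor D made by fat cells, had a log2 fold change of -3.26 (edgeR adjusted p = 0.143), with 1.30 to 7.27 CPM in ADQ and 2.66 to 75.2 CPM in control. For Cfd, 4 controls lay above every ADQ library and 2 ADQ libraries below every control. At an unadjusted edgeR p under 0.05, in either direction, there were 9 of the 18 tested components, against 13.8% of all genes tested. The components had a median log2 fold change of 0.32, 12 above 0 and 6 below, beside -0.10 for the 9 regulators and receptors and 0.01 for all genes tested.

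Of 15 other regulators and receptors, 12 were tested and 1 rose, with a median log2 fold change of -0.04. At an unadjusted edgeR p under 0.05 there were 2 of these 12. Itgb2 encodes the beta chain shared by complement receptors 3 and 4 and by other leukocyte integrins. It was at 123, 157, 133, 142 and 124 CPM in ADQ 1 to 5 and at 80.4, 97.7, 87.2, 83.5 and 98.2 CPM in control 1 to 5. Every ADQ library lay above every control (log2 fold change 0.60, SE 0.09, edgeR adjusted p = 0.00756), and the call held on leaving out each library in turn, with adjusted p up to 0.0373. With the macrophage marker level as a covariate it was lost (log2 fold change 0.44, edgeR adjusted p = 0.392), while the other 20 alternatives kept it. The SE of Itgb2 was then 0.125, against 0.0936 without the covariate, and calls over all genes fell from 171 to 8. That covariate includes Aif1 and Adgre1, which themselves rose in ADQ. The partner chains of Itgb2 did not pass: Itgax of receptor 4 had a log2 fold change of 0.52 (edgeR adjusted p = 0.0629) and Itgam of receptor 3 one of 0.26 (edgeR adjusted p = 0.495). Cr2 and Susd4, at 0.294 and 1.63 CPM on average in ADQ and 0.462 and 1.22 CPM in control, had log2 fold changes of -0.64 and 0.42 (edgeR adjusted p = 0.515 and 0.67).

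**Figure D3:**
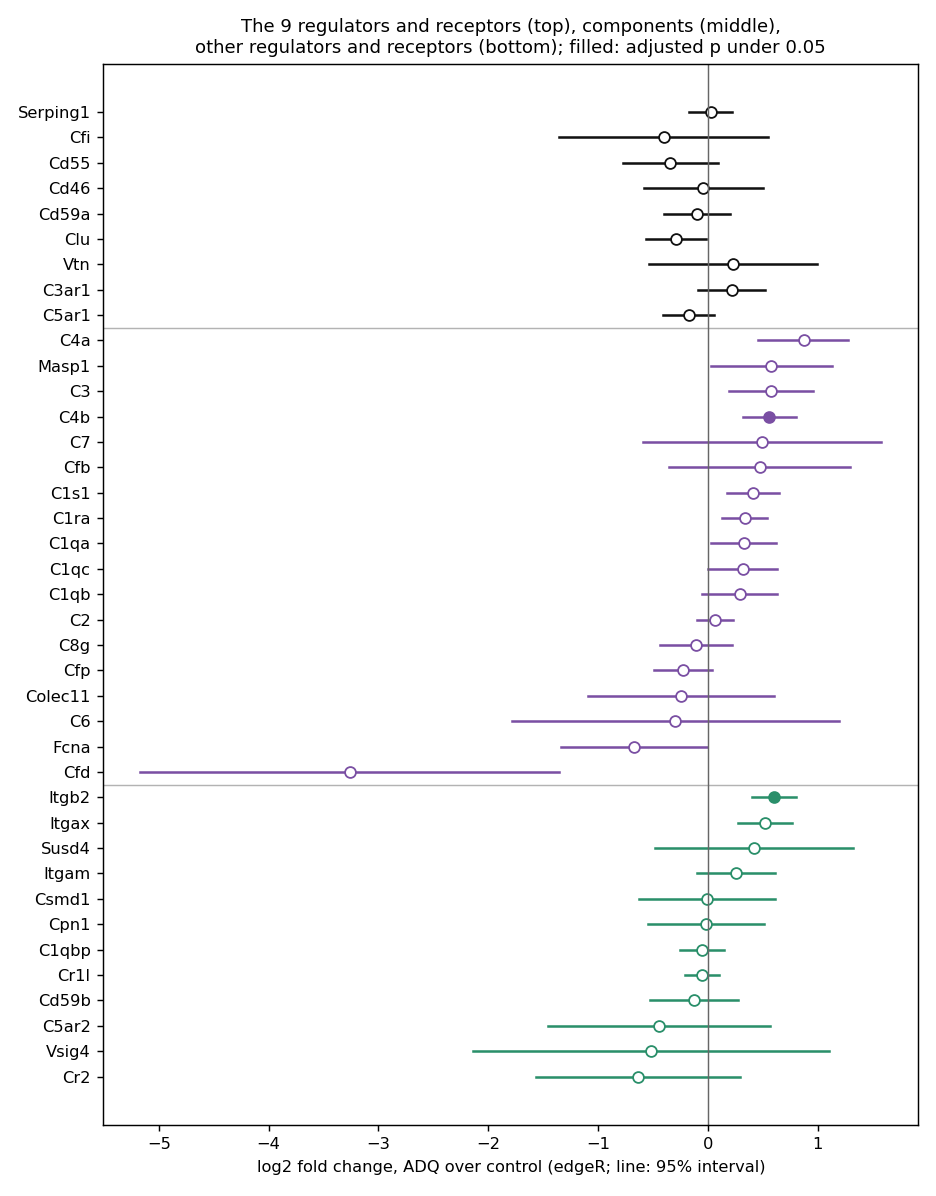
Log2 fold change of ADQ over control (x axis; circle, with its 95% interval as a line) for the 9 regulators and receptors in black, 18 tested components in purple and 12 other tested regulators and receptors in green. Filled circles passed the test: C4b at 0.56 and Itgb2 at 0.60; no black circle is filled.

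That Itgb2 passed and the anaphylatoxin receptors did not is no test of a difference between them. The ratios of these genes within each library are given as a description with no test, since the 3 pairs were chosen after the values were seen and the ratios depend on one another. The ratio of Itgb2 to C5ar1 was 4.38 to 6.32 in ADQ and 2.86 to 3.35 in control, with a difference of the means of 0.78 on the log2 scale. The ratio of Itgb2 to C3ar1 was 2.53 to 3.75 in ADQ and 2.00 to 2.56 in control, with a log2 difference of 0.40. The ratio of C3ar1 to C5ar1 was 1.46 to 2.10 in ADQ and 1.16 to 1.58 in control, with a log2 difference of 0.37. In the first of these ratios the groups did not overlap, and in the others 4 of 5 ADQ libraries lay above every control.

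**Figure D4:**
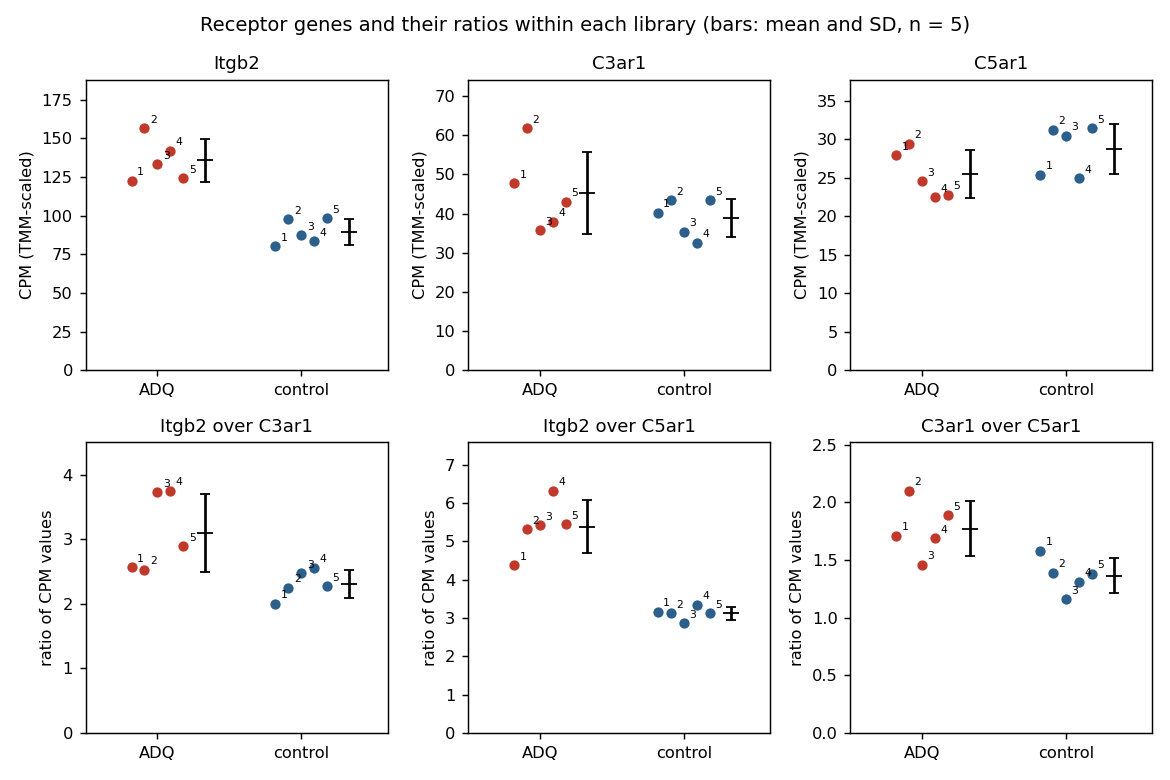
TMM-scaled CPM of Itgb2, C3ar1 and C5ar1 (top row) and the ratio of CPM values for each pair (bottom row) in the 5 ADQ (red) and 5 control libraries (blue), all axes from 0, with mean and SD beside each group. The ADQ ratios of Itgb2 to C5ar1, from 4.38, lie above all control ratios, up to 3.35; for the pair C3ar1 and C5ar1, ADQ 3 at 1.46 lies among the controls.

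Macrophages and microglia carry Itgb2, C3ar1 and C5ar1, and their markers stood beside these results unevenly. Of 12 markers, all detected in every library, 2 rose: Aif1, at 42.7 to 65.0 CPM in ADQ and 21.9 to 38.0 CPM in control (log2 fold change 0.92, edgeR adjusted p = 0.00756), and Adgre1, at 63.6 to 80.4 CPM in ADQ and 42.8 to 56.7 CPM in control (log2 fold change 0.47, edgeR adjusted p = 0.0476). Cx3cr1, at 12.4 to 19.8 CPM in ADQ and 9.55 to 10.8 CPM in control, did not pass (log2 fold change 0.56, edgeR adjusted p = 0.113). With it, 3 of the 12 had groups that did not overlap, against 3.16% of all genes tested. Csf1r, the receptor most macrophages need to survive, was at 293 to 344 CPM in ADQ and 276 to 324 CPM in control (log2 fold change 0.02, edgeR adjusted p = 0.938). Over the 12 markers, 11 had log2 fold changes above 0 and Lyve1 had one of -0.59 (edgeR adjusted p = 0.379), with a median of 0.21. The summed macrophage and microglia markers ran from 5568 to 8529 CPM in ADQ and from 5065 to 7107 CPM in control, most of it Lyz2. Neutrophil markers summed to 25.3 to 34.8 CPM in ADQ and 24.1 to 31.8 CPM in control, with 0 of 5 tested passing. T and NK cells carry Itgb2 too; of their markers, 0 of 7 passed and 6 of 7 had log2 fold changes above 0, with a median of 1.44. Nkg7, a granule protein of these cells, was at 25.4 to 41.0 CPM in ADQ, 3.81 to 9.23 CPM in control 1 to 4 and 32.5 CPM in control 5 (log2 fold change 1.44, edgeR adjusted p = 0.336). Control 5 had 98.2 CPM of Itgb2, the highest control and below every ADQ library. The part of leukocyte numbers in the receptor values was not tested.

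The authors' deposited table lists 8 of the 9 genes, without Cfi, and none of the 8 has an adjusted p under 0.05 there, where 5.42% of its 15860 genes do. All 8 have the sign found here. In the authors' deposited table Clu comes closest, with a log2 fold change of -0.31 and an adjusted p of 0.0739. Of the other complement genes, 6 of the 26 in the authors' deposited table pass, C1ra, C1s1, C4a, C4b, Itgax and Itgb2, all with a positive log2 fold change.

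**Figure D5:**
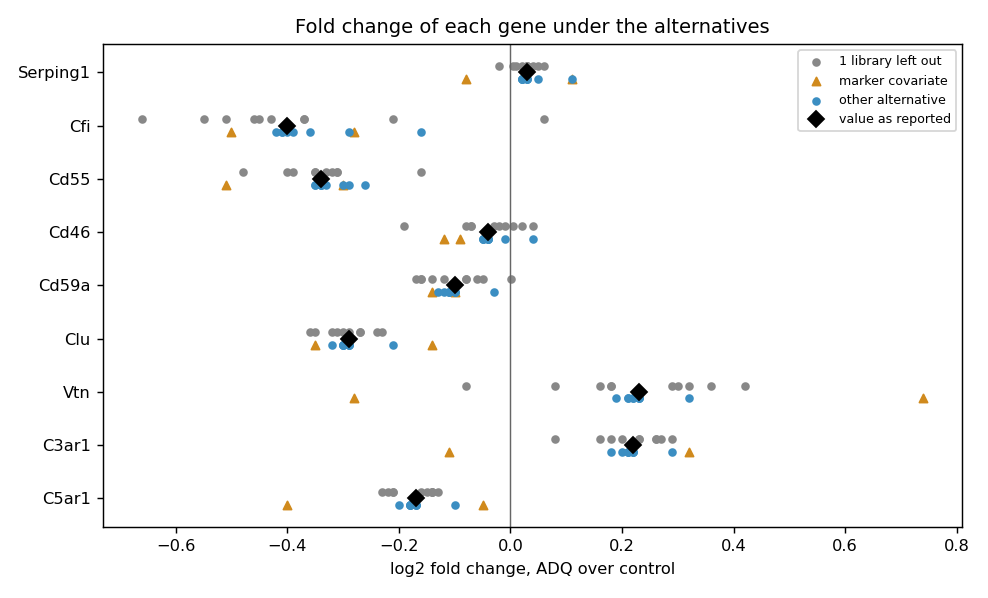
Log2 fold change of ADQ over control (x axis) for each of the 9 genes as reported (black diamond), with 1 library left out (grey), with a marker level as covariate (orange triangles) and under the other alternatives (blue). Values for Cd55, Clu and C5ar1 stay below 0 throughout, while those of Vtn run from -0.28 to 0.74.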

How the data were processed

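The study measured messenger RNA in 5 ADQ and 5 control samples of RPE/choroid complex. The labels' protocols name TRIzol for collection, NucleoSpin columns for RNA and SMARTer for cDNA. Per the submitters' processing notes, the build was GRCm38 and the tools were bcl2fastq, DRAGEN, edgeR and limma, without versions or roles. Strand and counting settings were not given in the sources used here.

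Raw counts, whole numbers per Ensembl gene, were deposited by the authors; 287 repeated entries of 55774 were dropped. Per the file headers, the authors' second table holds log2 values per library (log2 CPM, judged from their range), log2 fold changes, p-values and a signed fold score; the score was not used.

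The test was the robust quasi-likelihood F test of edgeR 4.0.16 (with limma 3.58.1 in R 4.3.3) on group, after filterByExpr (minimum count 10, minimum total 15) and TMM scaling, with Benjamini-Hochberg adjustment at 0.05 over all genes. Each SE was obtained as |log2 fold change| divided by √F, and 95% intervals from it with the t quantile. Alternatives were other scalings and filters, DESeq2 1.42.0 without independent filtering, voom with quality weights, a fit without robust estimation, leaving out each library, a replicate block, and macrophage or rod marker level (mean log2 CPM, prior count 2) as a covariate; 1 rod marker of the planned list is not reported here and entered no value. The test was checked on simulated data.

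The smallest chi-square between any pair of libraries was 33.9 per degree of freedom, so no library repeated another. The labels mention no molecular identifiers. Symbols come from the count table; positions and merged exon lengths come from GENCODE M21, which holds 99.4% of its identifiers. The genes, the lists and the rule for named genes were chosen with earlier results of these data known. The rule took all 9 genes, the other complement genes that passed and up to 4 more of each list by p, and the 3 genes most like the member with the smallest p; Cr1l, Cd59b and C5ar2, named beyond it for their role, were chosen after their values were seen.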

Additional observations from a re-analysis of the deposited data

Results flagged for a closer look

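Of 38 groups of 5 libraries, for 19 genes, 3 held a library far from the other 4 by Dixon's test at 95%, near the 1 in 20 that chance gives. Cfi, the factor I protease, was at 1.14 CPM in control 5, against 0.296 to 0.468 CPM in the other controls. Cr2, a complement receptor of B cells, was at 0.626 CPM in ADQ 2, against 0.151 to 0.248 CPM in the other ADQ libraries. Susd4, a membrane protein with complement control repeats, was at 3.78 CPM in ADQ 5, against 0.584 to 1.41 CPM in the other ADQ libraries.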

How the results depend on the processing

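Of 188 log2 fold changes of the 9 genes under 21 alternatives, 176 kept their sign and stayed uncalled, 11 changed sign without being called, and 1 became a call. Cfi was removed by the filter of 1 CPM in 5 libraries and has no value there. The sign changed for Cfi (0.06 without control 5), Serping1 (-0.02 without ADQ 2, -0.08 with the macrophage marker covariate), Cd59a (0.0015 without ADQ 3), Cd46 (0.04 with library size alone and without control 2, 0.02 without ADQ 2, 0.0049 without control 5), Vtn (-0.08 without ADQ 5, -0.28 with the rod marker covariate) and C3ar1 (-0.11 with the macrophage marker covariate); the cause was not tested. With 1 library left out, values ran from -0.66 to 0.06 for Cfi, -0.02 to 0.06 for Serping1, -0.17 to 0.0015 for Cd59a, -0.19 to 0.04 for Cd46 and -0.08 to 0.42 for Vtn.

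The replicate number used as a block raised all calls to 694 and called 1 of the 9 genes lower, Clu (log2 fold change -0.30, edgeR adjusted p = 0.0273), with 4 components and 2 other regulators or receptors. Same-numbered libraries correlated in their deviations from -0.113 to 0.163, and 2 of 10 libraries correlated best with their own number in the other group, so the numbers were not taken to pair the samples. Calls over all genes were 743 with DESeq2, 664 with voom, 8 with the macrophage marker covariate and 78 to 357 with 1 library left out, against 171. Components called numbered 6 with DESeq2, 4 with voom, 2 with no low-count filter, with the 1 CPM filter and with the non-robust fit, 0 with the macrophage marker covariate and 0 to 3 with 1 library left out, against 1. Other regulators and receptors called numbered 2 with library size alone, no low-count filter, DESeq2 and voom, 0 with the macrophage marker covariate (Itgb2 log2 fold change 0.44, edgeR adjusted p = 0.392) and 1 to 2 with 1 library left out, against 1. Scaling by library size alone moved the median of all genes to 0.10. Ratio differences with 1 library left out, added after the data were seen, stayed at 0.33 to 0.47 for Itgb2 to C3ar1, 0.72 to 0.85 for Itgb2 to C5ar1 and 0.31 to 0.44 for C3ar1 to C5ar1. Cfi and Cd46 rest on 8 to 77 counts a library, which limits their precision beside the spread between libraries.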
